A study of Mus musculus with 12 samples.

Results

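*Epha3* and 9 related genes were followed in RNA-seq libraries of whole embryonic mouse hearts. The 10 genes were the EphA receptors *Epha2*, *Epha3*, *Epha4* and *Epha7*, the EphB receptors *Ephb3* and *Ephb4*, the ephrin-A ligands *Efna1*, *Efna4* and *Efna5*, and the ephrin-B ligand *Efnb2*. They were picked by symbol, with results of these same data known, from the 20368 genes of the deposited table, which holds 22 Eph receptor and ephrin genes in all. Their differences between mutant and control hearts are therefore given as a description, with no p-value, and nothing is read from them.

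Eph receptors form the largest family of receptor tyrosine kinases, and they bind ephrins that are anchored in the membrane of a neighbouring cell. Binding can send a signal into the receptor cell and a reverse signal into the ephrin cell, and the pathway is known for guiding cell contact, repulsion and boundary formation. EphA receptors bind mainly ephrin-A ligands, which are held by a lipid anchor, and EphB receptors bind mainly ephrin-B ligands, which cross the membrane, while *Epha4* also binds ephrin-B ligands. In the developing heart *Epha3* is known from the endocardial cushions, where endocardial cells turn into the mesenchyme that builds valves and septa, and *Efnb2* and *Ephb4* are known as the ligand of arteries and the receptor of veins.

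The hearts came from CD1 embryos at E11.5 or E12.5, with 3 libraries in each of 4 groups. HIRA is a histone chaperone that deposits the variant histone H3.3. All 12 libraries came from hearts that carried *Mesp1Cre*, whose Cre recombinase acts in the early mesoderm that gives rise to most of the heart. These hearts also had a floxed *Hira* allele. The other *Hira* allele was intact in the controls (*Mesp1Cre;Hira+/fl*) and null in the mutants (*Mesp1Cre;Hira-/fl*), so the controls were expected to keep 1 functional allele in recombined cells, and cells outside the Mesp1 lineage kept the floxed allele in both. No group without Cre was analysed here. Total counts per library ran from 11994148, in E11.5 mutant 3, to 17483982, in E12.5 control 2. From Y-linked genes, the 3 E11.5 controls were called male, as were 1 of 3 E11.5 mutants, 1 of 3 E12.5 controls and 1 of 3 E12.5 mutants, so sex was partly confounded with genotype at E11.5 and with stage in the controls. *Hira* itself differed by a log2 fold change of -0.26 at E11.5 (SE 0.14, edgeR adjusted p = 0.607) and -0.01 at E12.5 (SE 0.12, edgeR adjusted p = 0.962), and counts over a whole gene cannot show the loss of its floxed exon. Cardiomyocyte markers were abundant in all 12 libraries (11 genes, 23590 to 32010 counts-per-million, CPM, in sum), and the skeletal muscle list was near 0 (6 genes, 0.192 to 3.58 CPM in sum).

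*Epha3* lies on the - strand of chromosome 16, from 63543538 to 63864158 of GRCm38, 44.6 Mb from *Hira* on the same chromosome. *Efna5* lies on the - strand of chromosome 17, from 62604184 to 62881317. *Ephb3*, the gene of the set nearest to *Hira*, is on chromosome 16 too, on the + strand from 21204755 to 21223305, 2.23 Mb from *Hira*. *Efna1* and *Efna4* sit with *Efna3* in a cluster of 66296 bases on chromosome 3. The genes *Epha7*, *Efna4* and *Ephb4* each overlap an annotated gene on the other strand (*Gm11915*, *4731419I09Rik* and *Zan*), and without a statement on strand in the counting, reads of such partners cannot be told apart.

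The start regions of *Epha3* and *Efna5* are shown because these were the EphA receptor and the ephrin-A ligand with the lowest mutant values relative to control at E11.5, and because the study looked at the repeat GAGAGAGA in its ChIP-seq of HIRA, which was not analysed here. Each window runs from 250 bases before to 50 bases after the RefSeq start on GRCm38.p6, 5′ to 3′ on the strand of the gene. *Epha3* is chr16:63864126-63864425 on the - strand and *Efna5* is chr17:62881268-62881567 on the - strand. Capitals mark GAGAGAGA on either strand, overlapping matches joined, which appears on the printed strand as TCTCTCTC.
Epha3: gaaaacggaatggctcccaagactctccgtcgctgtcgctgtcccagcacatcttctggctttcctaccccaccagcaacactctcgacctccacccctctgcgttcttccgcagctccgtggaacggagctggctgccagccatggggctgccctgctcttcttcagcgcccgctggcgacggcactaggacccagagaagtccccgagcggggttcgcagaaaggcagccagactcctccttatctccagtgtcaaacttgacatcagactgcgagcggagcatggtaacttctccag
Efna5: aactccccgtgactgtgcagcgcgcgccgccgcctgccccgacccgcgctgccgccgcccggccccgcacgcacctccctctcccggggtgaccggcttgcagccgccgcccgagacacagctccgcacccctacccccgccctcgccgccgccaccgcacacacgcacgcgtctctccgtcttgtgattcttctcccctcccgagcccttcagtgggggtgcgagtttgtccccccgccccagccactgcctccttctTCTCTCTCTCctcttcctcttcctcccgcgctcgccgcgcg

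The *Epha3* window holds no match, and the *Efna5* window holds a run of 10 matched bases that begins 9 bases after the start. Of the 10 genes, only *Efna5* had a match in its window, and of the 21 Eph receptor and ephrin genes with a window in the table, 2 did, the other being *Ephb1*. Among all 32851 windows of the RefSeq table, 1292 (3.93%) hold the repeat. The windows of the 10 genes were GC-rich, from 54.7% in *Epha2* to 73.3% in *Efna5*, against a median of 52.7% over all windows, and they held 10 to 38 CpG dinucleotides against a median of 7. The letters of a start region say nothing of sites elsewhere in the gene. From its ChIP-seq the study reports HIRA-bound regions in introns of *Epha3*, with a GAGA motif in part of them.

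*Epha3*, the EphA receptor of the cushions, was lower in every mutant heart than in every control heart at both stages. All levels in CPM use library sizes scaled by edgeR's TMM method. At E11.5 the 3 control hearts had 22.9, 19.8 and 17.5 CPM of *Epha3*, from 352, 310 and 250 counts. The 3 E11.5 mutant hearts had 11.5, 7.30 and 6.48 CPM, from 178, 121 and 75 counts. The highest mutant library, mutant 1, thus stayed below the lowest control. The group means were 20.1 ± 2.73 CPM (SD, n = 3) and 8.44 ± 2.71 CPM (SD, n = 3), and the log2 fold change was -1.25 (SE 0.24), 2.38-fold lower.

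At E12.5 the control hearts had 31.7, 31.7 and 25.3 CPM of *Epha3* and the mutant hearts 11.5, 15.0 and 11.5 CPM. The groups were again apart, with over 10 CPM between mutant 2, the highest mutant, and control 3, the lowest control. The means were 29.6 ± 3.69 CPM (SD, n = 3) and 12.7 ± 1.99 CPM (SD, n = 3), a log2 fold change of -1.22 (SE 0.14), 2.33-fold lower. The effects at the 2 stages differed by 0.03 on the log2 scale (SE 0.28, E12.5 minus E11.5). Within the male hearts of E12.5, *Epha3* stood at 25.3 CPM in the control and 11.5 in the mutant, and within the females at 31.7 and 31.7 against 15.0 and 11.5. At E11.5 the 1 male mutant had 6.48 CPM, below all 3 controls, which were male.

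A gene was called changed at an adjusted p of at most 0.05 with a fold of at least 1.5. By that rule edgeR called 0.115% of the 12197 genes tested between genotypes at E11.5 and 2.95% of 12257 at E12.5. The 10 genes were picked on these contrasts, so their calls are given only beside the alternative fits, and nothing is read from them. All 10 genes passed the filter on low values, which was 0.5 RPKM (CPM per kilobase of gene length) on average over the 6 libraries compared. In whole-heart libraries, fewer cells that express a gene and less RNA per cell cannot be told apart.

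**Figure D1:**
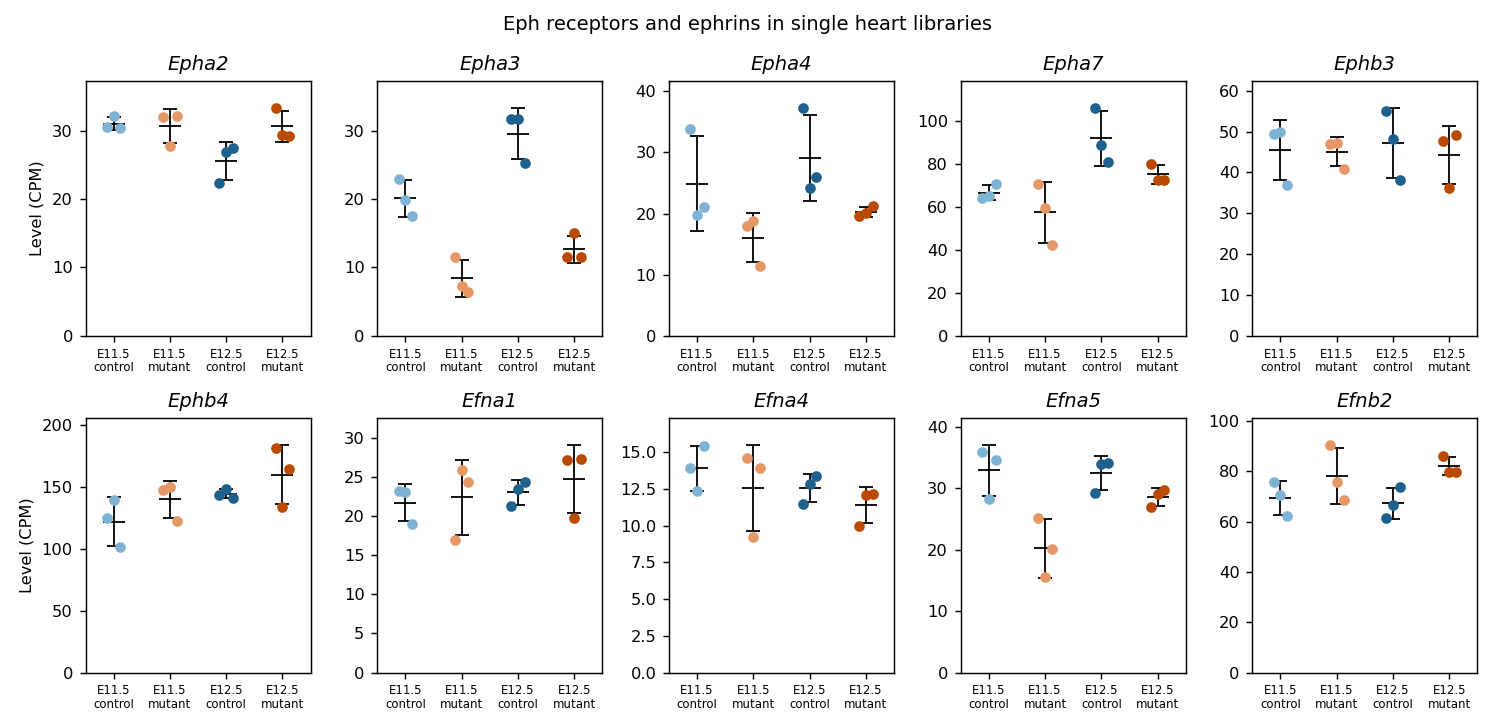
Level of each gene in CPM (y axis, from 0, own scale per gene) in the 4 groups (x axis). Points are single libraries, black bars the mean ± SD of 3, and the *Epha3* panel shows mutant points at 6.48 to 15.0 CPM, below all control points of 17.5 to 31.7 CPM.

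The other EphA receptors had smaller differences. *Epha4*, a receptor that binds ligands of both classes, had 33.9, 19.7 and 21.1 CPM in the E11.5 controls and 18.0, 18.7 and 11.5 CPM in the E11.5 mutants. At E12.5 it had 37.2, 24.1 and 26.1 CPM in the controls and 19.6, 20.02 and 21.2 CPM in the mutants. The mutants were lower without overlap at both stages, though at E11.5 by only about 1 CPM between mutant 2 and control 2, and replicate 1 was the highest control each time. The log2 fold changes of *Epha4* were -0.63 (SE 0.26) and -0.52 (SE 0.15), and without control 1 they were -0.34 and -0.31.

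*Epha7*, a receptor best known from axon guidance, overlapped between genotypes at E11.5, with 64.1 to 70.5 CPM in controls and 42.3 to 70.4 CPM in mutants. At E12.5 its controls had 106, 88.8 and 80.9 CPM and its mutants 80.1, 72.6 and 72.6 CPM, with less than 1 CPM between the groups. The log2 fold changes of *Epha7* were -0.22 (SE 0.18) and -0.29 (SE 0.10). *Epha2*, a receptor of epithelia and vessels, was the EphA receptor of the set with the other sign at E12.5. It had 30.4 to 32.1 CPM in controls and 27.8 to 32.1 CPM in mutants at E11.5, and 22.3 to 27.4 CPM against 29.3 to 33.3 CPM at E12.5, where all mutants lay above all controls. The log2 fold changes of *Epha2* were -0.02 (SE 0.12) and 0.26 (SE 0.11).

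Since RPKM is a level per length, receptors of one class can be summed and compared on that scale. Over 9 EphA receptors, the summed level at E11.5 was 31.3 ± 1.19 RPKM in controls and 24.9 ± 3.37 RPKM in mutants (SD, n = 3 each). At E12.5 the sums were 35.2 ± 2.28 and 28.9 ± 1.14 RPKM (SD, n = 3 each). *Epha3* made up 16.1% ± 1.92, 8.40% ± 1.5, 21.1% ± 1.43 and 11.1% ± 1.88 (SD, n = 3) of these sums in the same order. Its share in single libraries was 13.99% to 22.2% in controls and 7.23% to 13.2% in mutants, so the mutant shares lay below the control shares across both stages. The sums of the other classes did not all go the same way. In the same order of groups, mean sums were 45.1, 47.7, 49.1 and 52.4 RPKM for EphB receptors. They were 57.0, 72.6, 62.7 and 72.0 RPKM for ephrin-B ligands, and 36.4, 32.0, 34.6 and 33.4 RPKM for ephrin-A ligands.

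The 2 EphB receptors overlapped between genotypes at both stages. *Ephb4*, the venous receptor, had 101 to 140 CPM in controls and 123 to 150 CPM in mutants at E11.5, and 141 to 148 CPM against 134 to 181 CPM at E12.5. Its log2 fold changes were 0.20 (SE 0.15) and 0.15 (SE 0.10). *Ephb3*, which shares ephrin-B ligands with it, had 36.9 to 49.9 CPM in controls and 40.9 to 47.3 CPM in mutants at E11.5, and 38.2 to 55.1 CPM against 36.2 to 49.2 CPM at E12.5. Its log2 fold changes were -0.01 (SE 0.15) and -0.09 (SE 0.15).

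Among the ligands, *Efna5*, an ephrin-A that binds *Epha3*, was lower in the mutants at E11.5. The E11.5 controls had 35.9, 28.2 and 34.6 CPM and the mutants 25.1, 15.6 and 20.03 CPM. All mutants lay below all controls, and mutant 2 was the lowest. At E12.5 the controls had 29.2, 33.9 and 34.2 CPM and the mutants 27.0, 29.1 and 29.7 CPM, which overlapped by the range between control 1 and mutant 3. The log2 fold changes of *Efna5* were -0.70 (SE 0.19), or 1.63-fold lower, and -0.18 (SE 0.09). Its difference between stages, 0.52 (SE 0.22), was the largest in size of the 10 genes.

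*Efna1*, a ligand found in vessels, and *Efna4* overlapped between genotypes at both stages. *Efna1* had 19.0 to 23.2 CPM in controls and 16.9 to 26.0 CPM in mutants at E11.5, and 21.3 to 24.3 against 19.8 to 27.4 CPM at E12.5. *Efna4* had 12.4 to 15.4 CPM in controls and 9.23 to 14.6 CPM in mutants at E11.5, and 11.5 to 13.4 against 9.98 to 12.1 CPM at E12.5. The log2 fold changes at the earlier and the later stage were 0.04 (SE 0.19) and 0.10 (SE 0.13) for *Efna1*, and -0.15 (SE 0.21) and -0.14 (SE 0.13) for *Efna4*. *Efnb2*, the arterial ligand, had 62.2 to 75.7 CPM in controls and 68.5 to 90.4 CPM in mutants at E11.5. At E12.5 *Efnb2* had 61.6, 66.6 and 73.6 CPM in controls and 86.0, 79.9 and 79.8 CPM in mutants, with all mutants above all controls. Its log2 fold changes were 0.17 (SE 0.14) and 0.28 (SE 0.08).

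Counted over the 10 genes at E11.5, 7 log2 fold changes were below 0 and 3 above, with a median of -0.08 against 0.00 over all genes tested. The mutant and control libraries did not overlap for 3 of the 10, *Epha3*, *Epha4* and *Efna5*, each lower, beside 16.3% of all genes tested. At E12.5, 6 were below 0 and 4 above, with a median of -0.12. There the libraries did not overlap for *Epha3*, *Epha4* and *Epha7*, each lower, and for *Epha2* and *Efnb2*, each higher, beside 26.3% of all genes. Since the genes were picked with these contrasts known, nothing is read from these shares.

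**Figure D2:**
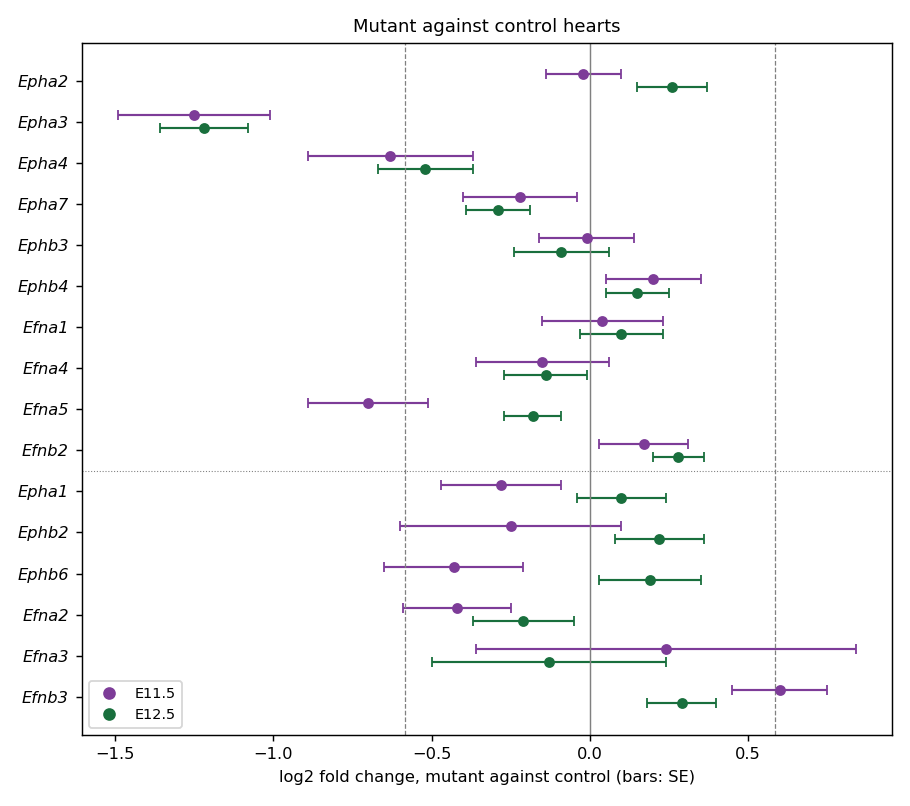
Log2 fold change of mutant against control hearts (x axis) at E11.5 and E12.5 for the 10 genes (above the dotted line) and the 6 other family genes tested (below it). Points are edgeR estimates, bars their SE and dashed lines a 1.5-fold difference, and *Epha3* lies at -1.25 and -1.22, with the next lowest value at -0.70 (*Efna5*, E11.5).

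The remaining 12 genes of the family are those the pick left out, so the pick shaped this set too. Of these, 6 passed the filter and were tested. None was called changed between genotypes by edgeR at either stage (0.115% and 2.95% of all genes were), and an unadjusted p under 0.05 was found for 2 of the 6 at the earlier stage, beside 10.2% of all genes, and for 1 at the later, beside 21.4%. *Efnb3*, an ephrin-B best known from the nervous system, had 106, 103 and 85.1 CPM in E11.5 controls and 129, 174 and 143 CPM in E11.5 mutants. All 3 mutants were above all controls, but the log2 fold change of 0.60 (SE 0.15) did not pass over all genes (edgeR adjusted p = 0.187). At E12.5 the *Efnb3* groups overlapped, with a log2 fold change of 0.29 (SE 0.11, edgeR adjusted p = 0.167). *Efna2* and *Ephb6* were below control in all E11.5 mutants, by -0.42 (SE 0.17, edgeR adjusted p = 0.435) and -0.43 (SE 0.22, edgeR adjusted p = 0.583) on the log2 scale, and overlapped at E12.5. *Epha1*, *Ephb2* and *Efna3* overlapped at both stages. *Epha5*, *Epha6*, *Epha8*, *Epha10* and *Ephb1* were under the filter, with at most 2.71 CPM in any library. Of these, *Ephb1* had 15 to 25 counts in E11.5 controls and 5 to 9 in E11.5 mutants. At E12.5 it had 27 to 44 counts in controls and 9 to 39 in mutants, which overlapped. *Efnb1*, on chromosome X, is outside the deposited comparisons and was not tested, and its levels in CPM were 28.6 to 38.1 in controls and 22.1 to 30.5 in mutants at E11.5, and 37.9 to 41.3 and 30.2 to 36.5 at E12.5, where all mutants were below all controls.

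The order of the levels was compared per length, in RPKM. *Ephb4* was the most abundant of the 10 genes in all 4 groups, from 27.9 ± 4.45 RPKM (SD, n = 3) in E11.5 controls to 36.6 ± 5.49 RPKM (SD, n = 3) in E12.5 mutants, and its libraries lay above all those of the next gene in each group. *Efnb2* came second with group means of 15.6 to 19.0 RPKM and *Efna1* next with 13.2 to 15.1 RPKM, and these 2 overlapped in the E12.5 controls only. *Ephb3*, with 10.7 to 11.4 RPKM, came next in 3 groups, and in the E12.5 controls *Epha7* stood just above it and overlapped it. *Epha7* had group means of 7.20 to 11.5 RPKM. *Epha2*, *Efna4* and *Efna5* had group means of 3.85 to 8.70 RPKM.

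*Epha3* took different places in the 4 groups. In E11.5 controls it was ninth with 5.05 ± 0.686 RPKM (SD, n = 3), and its libraries overlapped those of *Efna5* above it and *Epha4* below it. In E12.5 controls it was seventh with 7.43 ± 0.927 RPKM (SD, n = 3), overlapping *Efna4* and *Epha2*. In both mutant groups it was the last of the 10, with 2.12 ± 0.681 RPKM at E11.5 and 3.19 ± 0.499 RPKM at E12.5 (SD, n = 3 each), though it overlapped *Epha4* both times.

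**Figure D3:**
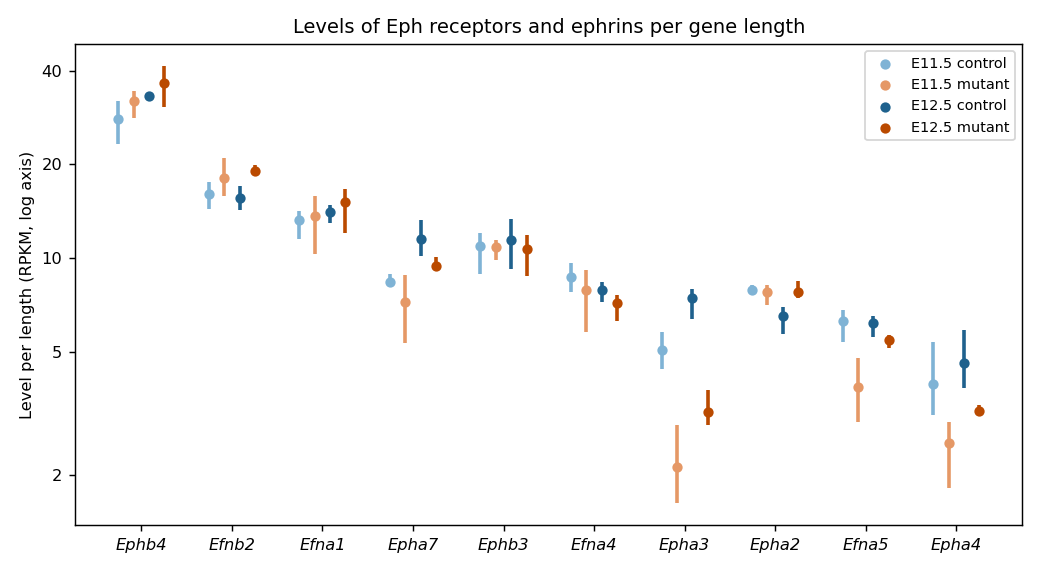
Level per gene length (y axis, RPKM, log axis) of the 10 genes, ordered by their mean in E12.5 controls (x axis). Points are group means and vertical lines the range of 3 libraries, with *Ephb4* highest at 27.9 to 36.6 RPKM and *Epha3* lowest in both mutant groups at 2.12 and 3.19 RPKM.

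The change from E11.5 to E12.5 was then tested within each genotype. These tests use the same libraries as the contrasts the 10 genes were picked on, so their p-values are not independent of the pick. In control hearts *Epha3* and *Epha7* were higher at E12.5 and passed the adjusted p but not the fold of 1.5. *Epha3* went from 20.1 ± 2.73 to 29.6 ± 3.69 CPM (SD, n = 3 each), 1.47-fold higher, or 0.56 on the log2 scale (SE 0.14, edgeR adjusted p = 0.0347). *Epha7* went from 66.5 ± 3.47 to 91.8 ± 12.6 CPM (SD, n = 3 each), 1.38-fold higher, or 0.46 on the log2 scale (SE 0.11, edgeR adjusted p = 0.0333). For both genes all E12.5 controls lay above all E11.5 controls, in 3 of 3 libraries. Among all 12252 genes, 5.28% were called between the stages in controls and 11.4% passed the adjusted p with any fold, and a count of 2 among 10 genes lies near the latter share.

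Stage and sex were partly confounded in the controls, and stage and the collection of the hearts cannot be told apart. The E11.5 controls were all male and the E12.5 controls 1 male and 2 female. With sex as a term, the log2 fold change of *Epha3* was 0.33 (SE 0.19, edgeR adjusted p = 0.574) and that of *Epha7* 0.28 (SE 0.15, edgeR adjusted p = 0.566). The 1 male E12.5 control had 25.3 CPM of *Epha3*, above the 17.5 to 22.9 CPM of the E11.5 controls, and 80.9 CPM of *Epha7*, above their 64.1 to 70.5 CPM. With all 12 libraries in one fit the adjusted p was 0.0929 for *Epha3* and 0.0832 for *Epha7*, and leaving out E12.5 control 1 gave 0.15 and 0.145.

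The other 8 genes did not pass in controls. *Epha2* was lower in all E12.5 controls (log2 fold change -0.28, SE 0.11, edgeR adjusted p = 0.117) and *Ephb4* higher in all of them (0.24, SE 0.12, edgeR adjusted p = 0.184). Libraries of the 2 stages did not overlap for these 4 genes of the 10, beside 37.4% of all genes. The ligands overlapped between stages, with log2 fold changes from -0.14 for *Efna4* to 0.08 for *Efna1*.

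In mutant hearts none of the 10 genes passed by edgeR or by DESeq2, where edgeR called 0.556% of 12238 genes, and 2 of the 10 had an unadjusted p under 0.05 beside 9.27% of all genes. *Epha3* went from 8.44 ± 2.71 to 12.7 ± 1.99 CPM (SD, n = 3 each), a log2 fold change of 0.57 (SE 0.24, edgeR adjusted p = 0.51), in size close to that in controls but with a wider error. The lowest E12.5 mutants, at 11.5 CPM, were level with the highest E11.5 mutant, mutant 1, to the digits given. *Efna5* went from 20.2 ± 4.78 to 28.6 ± 1.44 CPM (SD, n = 3 each) in mutants (log2 fold change 0.49, SE 0.18, edgeR adjusted p = 0.411), while in controls it stood at 32.9 ± 4.14 and 32.4 ± 2.80 CPM (SD, n = 3 each). Libraries did not overlap for 4 of the 10 genes, *Epha3*, *Epha4*, *Epha7* and *Efna5*, each higher at E12.5, beside 17.4% of all genes.

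**Figure D4:**
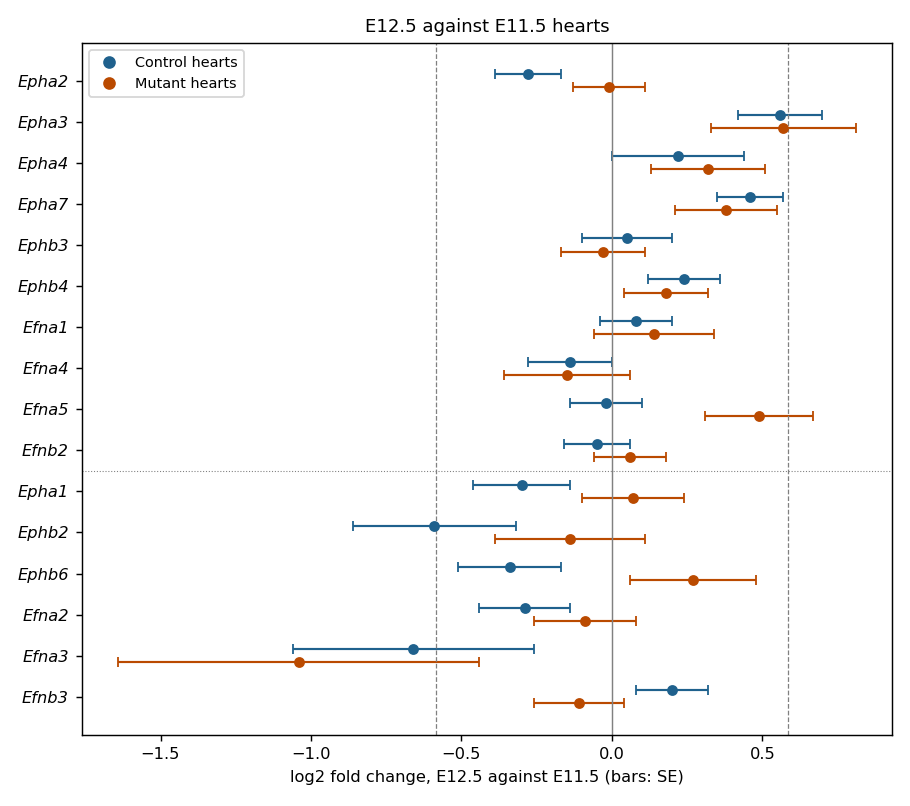
Log2 fold change of E12.5 against E11.5 hearts (x axis) in controls and in mutants, for the 10 genes (above the dotted line) and the 6 other family genes tested (below it). Points are edgeR estimates, bars their SE and dashed lines a 1.5-fold difference. *Epha3* stands at 0.56 in controls and 0.57 in mutants, and *Efna5* at -0.02 and 0.49.

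Genes that act with Eph receptors were taken as a list of 45, holding kinases, adaptors, exchange factors and proteins that bind ephrins. At E11.5, 0 of the 43 tested were called between genotypes by edgeR, and 6 had a p under 0.05 before adjustment, beside 0.115% called and 10.2% under 0.05 among all genes. At E12.5, 2 of 44 were called, both higher in mutants, beside 2.95% of all genes, and 12 had an unadjusted p under 0.05, beside 21.4%. *Arhgef16*, an exchange factor that binds *Epha2*, had 2.34 ± 0.185 CPM in controls and 5.71 ± 0.920 CPM in mutants (SD, n = 3 each), a log2 fold change of 1.28 (SE 0.22, edgeR adjusted p = 0.0106). *Grb7*, an adaptor that binds receptor tyrosine kinases, had 1.24 ± 0.344 and 4.21 ± 1.15 CPM (SD, n = 3 each), a log2 fold change of 1.74 (SE 0.30, edgeR adjusted p = 0.0119). The median log2 fold change of the list was 0.02 at E11.5 and -0.01 at E12.5. Between stages in controls, 2 of 44 were called, a share near the 5.28% of all genes, and 15 had an unadjusted p under 0.05, beside 32.8% of all genes. The called genes, both higher at E12.5, were *Kalrn*, an exchange factor downstream of EphB receptors, from 39.8 ± 3.01 to 61.7 ± 3.38 CPM (SD, n = 3 each; 0.63 on the log2 scale, SE 0.10, edgeR adjusted p = 0.0112), and *Chn2*, which inactivates Rac, from 7.66 ± 2.16 to 14.2 ± 1.78 CPM (SD, n = 3 each; 0.90 on the log2 scale, SE 0.21, edgeR adjusted p = 0.0302). In mutants 0 of 43 were called between stages by edgeR, beside 0.556% of all genes, and 4 had an unadjusted p under 0.05, beside 9.27%.

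Markers of cushion mesenchyme were set beside *Epha3*. The 14 genes of that list, which include the transcription factors *Sox9* and *Twist1* and the matrix genes *Postn* and *Vcan*, summed to 2199 to 2408 CPM in E11.5 controls and 1768 to 2407 CPM in E11.5 mutants, and to 1933 to 2612 and 1721 to 1862 CPM at E12.5. The E12.5 mutants were thus lower in sum than all E12.5 controls, and none of the 14 was at 0. *Vcan*, *Postn*, *Tbx20* and *Col2a1* made up 82.7% to 89.1% of the sum, and *Tbx20* is also known from heart muscle cells. The other 10 genes summed to 279 to 314 CPM in E12.5 controls and 272 to 297 CPM in E12.5 mutants, which overlapped. At E12.5, 2 of the 14 were called, both lower, beside 2.95% of all genes: *Postn*, a matrix protein of cushions and valves, with a log2 fold change of -0.61 (SE 0.13, edgeR adjusted p = 0.0241), and *Col2a1*, a collagen of cartilage and valve mesenchyme, with -0.84 (SE 0.17, edgeR adjusted p = 0.0198). *Has2*, an enzyme that makes the hyaluronan of the cushion matrix, went the other way, with 13.3 to 16.9 CPM in controls and 20.3 to 27.4 CPM in mutants. Its log2 fold change of 0.58 (SE 0.14, edgeR adjusted p = 0.0415) passed the adjusted p but not the fold. *Sox9* and *Twist1* gave -0.09 (SE 0.12, edgeR adjusted p = 0.71) and -0.02 (SE 0.11, edgeR adjusted p = 0.941). *Msx2* gave -0.51 (SE 0.36, edgeR adjusted p = 0.45). Over the list, 11 of the 14 log2 fold changes were below 0 at E12.5, with a median of -0.17. At E11.5 none of the 14 was called by edgeR, beside 0.115% of all genes. There 12 of the 14 log2 fold changes were below 0, with a median of -0.23. The lowest was that of *Msx2*, -1.31 (SE 0.37, edgeR adjusted p = 0.228).

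Relative to the cushion sum, *Epha3* was 8.67 ± 1.58 per 1000 cushion CPM in E11.5 controls and 4.04 ± 0.800 in E11.5 mutants (SD, n = 3 each). At E12.5 the ratios were 13.0 ± 0.833 and 7.03 ± 1.03 (SD, n = 3 each). The mutant ratios, 3.20 to 4.79 and 6.197 to 8.18, lay below the control ratios of their stage, 7.36 to 10.4 and 12.1 to 13.8. The ratio is mostly one to the 4 abundant genes, and the part of the cushion cells in the *Epha3* values was not tested.

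**Figure D5:**
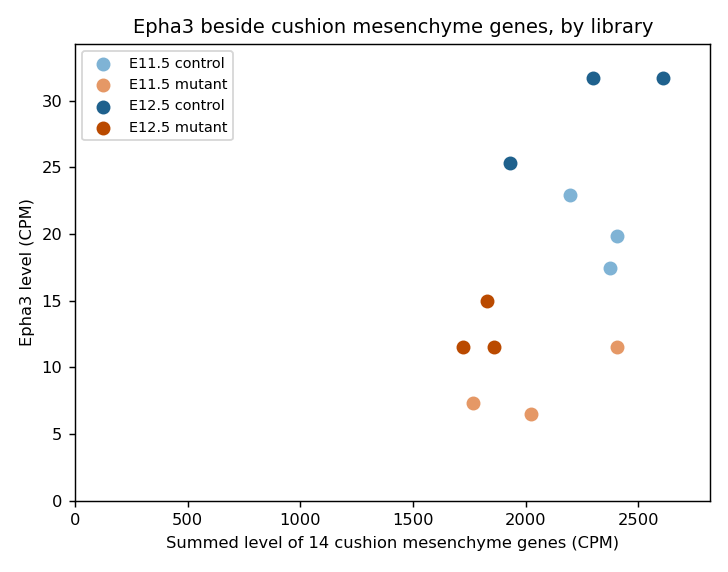
*Epha3* level in CPM (y axis) against the summed CPM of 14 cushion mesenchyme genes (x axis), both axes from 0, 1 point per library. At sums of 1721 to 2407 CPM the mutant points stay at 6.48 to 15.0 CPM of *Epha3*, and the control points, at 1933 to 2612 CPM, at 17.5 to 31.7 CPM.

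Other marker lists moved with the groups, and their part in the values of the 10 genes was not tested. The 11 endothelial and endocardial genes summed to 1292 to 1609 CPM in E11.5 controls and 1583 to 2232 CPM in mutants. At E12.5 they summed to 1715 to 1742 and 1615 to 2040 CPM. None was called between genotypes by edgeR, beside 0.115% of all genes at E11.5 and 2.95% at E12.5. Of their log2 fold changes, 0 of 11 were below 0 at E11.5 (median 0.48) and 3 of 11 at E12.5 (median 0.09). The 8 arterial and venous genes, set beside *Efnb2* and *Ephb4*, overlapped at E11.5, with 313 to 342 CPM in controls and 309 to 397 CPM in mutants. At E12.5 they summed to 391 to 412 CPM in controls and 325 to 378 CPM in mutants, all lower. In that list 2 of the 8 were called at E12.5, in opposite directions, beside 2.95% of all genes. *Gja4*, an arterial connexin, had 22.3 ± 2.09 CPM in controls and 39.3 ± 10.4 CPM in mutants (SD, n = 3 each), a log2 fold change of 0.82 (SE 0.17, edgeR adjusted p = 0.0206). *Aplnr*, the apelin receptor, had 12.7 ± 3.54 and 4.39 ± 1.48 CPM (SD, n = 3 each), a log2 fold change of -1.54 (SE 0.25, edgeR adjusted p = 0.00944).

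The 8 epicardial genes summed to 558 to 861 CPM in E11.5 controls and 363 to 508 CPM in mutants. None was called at E11.5 by edgeR, beside 0.115% of all genes, and 8 of 8 log2 fold changes were below 0 (median -0.71). The epicardial sums overlapped at E12.5, where 2 of 8 were below 0 (median 0.14) and *Msln* was called higher. The 10 macrophage genes summed to 77.2 to 147 and 33.9 to 41.2 CPM at E11.5, and to 124 to 158 and 66.0 to 88.7 CPM at E12.5. Of the 8 macrophage genes tested, 1 was called at E11.5, *C1qb*, which was lower in mutants, beside 0.115% of all genes. At E12.5, 4 of the 8 were called, *Csf1r*, *Mrc1*, *Lyz2* and *Cx3cr1*, each lower, beside 2.95% of all genes. The 5 smooth muscle genes summed to 1600 to 2146 CPM in E12.5 controls and 2223 to 2621 CPM in mutants. The 9 red blood cell genes found summed to 3908 to 6507 CPM in E12.5 controls and 2146 to 2785 CPM in mutants, with 5 of the 8 tested called lower, among them the embryonic globins *Hbb-y*, *Hba-x* and *Hbb-bh1*. None of the macrophage, epicardial, endothelial, arterial or venous genes was at 0 in a whole group.

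The genes whose pattern was most like that of *Epha3* were ranked by Pearson r of log2 CPM over the 12 libraries, among the 11458 genes whose RPKM averaged 1 or more. The first 5 were *Hirip3* (r = 0.961), *Zfp866* (r = 0.947), *Flrt2* (r = 0.942), *Fbf1* (r = 0.941) and *Itga8* (r = 0.940). The 12 points share the 4 groups and the library sizes, and r is given as a description. *Itga8*, an integrin subunit, went as *Epha3* did, with 37.7 ± 3.02 and 14.9 ± 2.04 CPM in E11.5 controls and mutants and 49.9 ± 6.88 and 27.7 ± 3.85 CPM at E12.5 (SD, n = 3 each). *Hirip3*, named for binding HIRA, had 51.5 ± 1.71 and 41.5 ± 2.89 CPM and then 60.7 ± 4.89 and 45.2 ± 1.71 CPM (SD, n = 3 each). Of the other 9 genes of the set, *Epha4* (r = 0.822), *Efna5* (r = 0.804) and *Epha7* (r = 0.755) were the most like *Epha3*, and *Epha2* (r = -0.547) and *Efnb2* (r = -0.446) ran the other way.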

How the data were processed

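RNA-seq was done on whole hearts, 3 libraries per group. Per the study's methods, the authors aligned paired-end reads with Bowtie and normalised them with DESeq (Bowtie2, DESeq and mm10 in the submitters' processing notes). The counting program, annotation and use of strand are not given in the sources used here. The deposited values named RPKM by the authors are of another kind, each a whole count multiplied by gene length and by a library factor that rises with depth. The authors' comparison tables hold average counts per group, made before deposit as means of 3 whole counts, not expected counts from a model. The fold changes, z scores and p-values beside them were not used. An average need not be whole, but 3 times each average lay within 0.0001 of a whole number. Dividing out both factors, fitted with those averages, gave counts within 3.35e-10 of whole numbers for 17827 genes, and 1597 genes had no count. RPKM and CPM were computed from these counts.

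Genes averaging 0.5 RPKM or more in a comparison entered edgeR 4.0.16 (quasi-likelihood, TMM, R 4.3.3), with Benjamini-Hochberg adjustment over all genes tested. The alternatives were DESeq2 1.42.0, median-ratio scaling, no filter, no fold threshold, the replicate number as a block, a term for sex (male at 100 or more counts of 4 Y-linked genes), all 12 libraries in one fit and each library left out. Scripts were tested on simulated data. The 10 genes and all lists were chosen with earlier results of these data known. Named were the 10 genes, the other family members, *Hira*, called genes of the pathway list, the 5 genes most like *Epha3* and markers that moved with the groups. Nothing states that replicates are separate litters or that each library is 1 heart, although libraries are called hearts here. The p-values weigh a difference against the spread between these libraries only.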

Additional observations from a re-analysis of the deposited data

How the results depend on the processing

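Counts of calls between genotypes among the 10 genes rest on the contrasts the genes were picked on, and nothing is read from them. At E12.5 the count was 1 (*Epha3*) in the main edgeR fit, beside 2.95% of all genes, and it stayed at 1 under every alternative. For *Epha3* at that stage the log2 fold change ran from -1.36 to -1.16 over the 13 alternatives. At E11.5 the count was 0 in the main edgeR fit, beside 0.115% of all genes. It became 1 (*Epha3*) with DESeq2, with the replicate block and with low genes kept (no filter). With all 12 libraries in one fit it became 2 (*Epha3* and *Efna5*), while every fit without 1 replicate gave 0. The shares of all genes called by these alternatives are not given here. The log2 fold change of *Epha3* at E11.5 ranged from -1.62, with the sex term, to -1.10. The sex term, which rests on 1 male mutant, also gave -1.11 for *Epha4*, -0.64 for *Epha7* and -0.01 for *Efnb2*. Between stages in controls the count of 0 became 2 with no fold threshold (*Epha3* and *Epha7*) and ranged from 0 to 1 (*Epha3*, without E12.5 control 3) when 1 replicate was left out. Between stages in mutants it stayed at 0 under all alternatives. The difference between stages for *Epha3* ran from -0.12 to 0.31 over the alternatives, the latter without E11.5 mutant 1.

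Uncalled values near 0 changed sign. Between genotypes at E11.5 the alternatives ran from -0.06 to 0.06 for *Epha2* and -0.08 to 0.21 for *Efna1*. They ran from -0.27 to 0.04 for *Efna4*, -0.14 to 0.06 for *Ephb3* and -0.01 to 0.25 for *Efnb2*. Between genotypes at E12.5 they ran from -0.22 to 0.04 for *Ephb3*. Values between stages changed sign too. In controls the sex term gave 0.06 for *Efna5*, -0.25 for *Ephb3* and 0.08 for *Efnb2*, and leaving out 1 replicate gave ranges of -0.01 to 0.14 for *Efna1*, -0.13 to 0.05 for *Efna5*, -0.07 to 0.18 for *Ephb3* and -0.12 to 0.02 for *Efnb2*. In mutants *Epha2* was 0.00 with no filter and 0.00 with all 12 libraries in one fit, and the ranges were -0.08 to 0.03 for *Epha2*, -0.04 to 0.28 for *Efna1*, -0.11 to 0.10 for *Ephb3* and -0.02 to 0.17 for *Efnb2*. The cause was not tested. The other 63 counts of calls and all 80 levels stayed within their limits, and the replicate block changed no other call. Whether the replicate numbers pair the libraries could not be settled from these values. Same-numbered libraries deviated from their group means with r from -0.14 to 0.45 over 11459 genes. The highest values, 0.45 and 0.29, were those of replicates 2 and 3 between genotypes at E11.5. At most 2 of 3 pairs of a comparison exceeded 0.1, and at most 4 of 6 libraries correlated best with their own number. At E11.5 the SE of *Epha3* was 0.18 with the replicate block and 0.24 without it. With 3 libraries per group and as few as 75 counts for *Epha3* in one library, small differences were not detectable.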
